A study of Mus musculus with 18 samples.

Results

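Multimerin 2 (Mmrn2), the matrix glycoprotein of blood vessel walls, was followed through the lung of mice exposed to a mixture of polycyclic aromatic hydrocarbons (PAHs), together with 8 genes that place it among endothelial surface proteins. The 9 genes were Mmrn2, its relative Mmrn1, its binding partners Clec14a, Cd93 and Cd248, and the endothelial markers Cdh5, Pecam1, Emcn and Esam. Members were found by matching the RefSeq accession of each probe to these symbols, which gave 10 probes for 9 of the 20660 genes on the array, with 2 probes for Clec14a and 1 for each of the others. Mmrn2 was chosen by its measured log2 change at the high dose, which was known beforehand, so its differences from the vehicle group are a description and carry no test. The other 8 genes were added by their known biology, to set that rise beside the endothelial RNA of the same lungs. They were chosen with earlier results of these data known, so their p-values are not those of a blind choice.

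The lungs came from 18 male MutaMouse animals aged about 12 weeks. These mice are of a transgenic strain on a BALB/C-DBA/2 background that carries a bacterial reporter gene, as all groups did. The 4PAH-Mix, a defined blend of PAHs in the proportions of a coal tar extract, was dissolved in olive oil and given by daily oral gavage for 28 days at 12.5 (low, n = 4), 25 (medium, n = 5) or 50 mg benzo[a]pyrene (BaP) equivalents/kg-bw/day (high, n = 4), and 5 vehicle mice received olive oil alone. Lungs were taken 72 h after the last dose, and RNA was extracted from random sections of the frozen tissue. Each mouse had its own array, on which Cy5-labelled lung RNA was hybridized against a Cy3-labelled reference RNA pooled from mouse cell lines. A log2 ratio is the Cy5 over the Cy3 intensity of 1 probe after normalization, and ratios were compared only within a probe. In RNA of a whole tissue, fewer cells of a type and less RNA per cell cannot be told apart.

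Multimerin 2 belongs to the EMILIN and multimerin family of extracellular matrix proteins and is laid down along blood vessels by endothelial cells. It binds the group 14 C-type lectins CLEC14A and CD93 on the endothelial surface, and CD248 on pericytes and fibroblasts, and is known for its part in angiogenesis, where it also binds vascular endothelial growth factor. Mmrn1 encodes a related protein stored in platelets and in endothelial cells. VE-cadherin (Cdh5), CD31 (Pecam1) and ESAM hold endothelial cells together at their junctions, and endomucin (Emcn) is a mucin-like protein of the luminal surface. CD31 and ESAM are also found on platelets, and CD31 and CD93 on leukocytes.

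Promoter sequence was at hand for 3 of the 9 genes (Emcn, Mmrn1 and Clec14a), and for Sncg, the nearest neighbour of Mmrn2 on its chromosome with a probe, whose upstream window lies in the gap between the annotated Sncg and Mmrn2. The windows are the 250 bases before the gene start in the RefSeq annotation of GRCm38.p6, read 5′ to 3′ on the gene's strand: chr3:137340828-137341077 (plus strand) for Emcn, chr6:60944067-60944316 (plus strand) for Mmrn1, chr12:58269259-58269508 (minus strand) for Clec14a and chr14:34374670-34374919 (minus strand) for Sncg. They are shown because Emcn rose with dose, Mmrn1 and Clec14a did not pass the test, and the Sncg window stands directly beside Mmrn2. Capitals mark matches on either strand to GCGTG, the core of the element bound by the aryl hydrocarbon receptor, and to a single decamer of the p53 motif.
Emcn: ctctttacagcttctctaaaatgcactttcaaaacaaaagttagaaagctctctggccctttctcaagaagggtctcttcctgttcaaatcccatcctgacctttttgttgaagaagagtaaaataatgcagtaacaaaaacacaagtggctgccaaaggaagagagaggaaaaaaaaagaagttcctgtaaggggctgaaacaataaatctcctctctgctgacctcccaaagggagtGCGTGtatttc
Mmrn1: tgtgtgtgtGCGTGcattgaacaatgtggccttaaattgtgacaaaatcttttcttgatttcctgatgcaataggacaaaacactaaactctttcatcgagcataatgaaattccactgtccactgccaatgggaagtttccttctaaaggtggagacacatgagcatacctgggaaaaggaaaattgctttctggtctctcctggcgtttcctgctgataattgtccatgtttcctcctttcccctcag
Clec14a: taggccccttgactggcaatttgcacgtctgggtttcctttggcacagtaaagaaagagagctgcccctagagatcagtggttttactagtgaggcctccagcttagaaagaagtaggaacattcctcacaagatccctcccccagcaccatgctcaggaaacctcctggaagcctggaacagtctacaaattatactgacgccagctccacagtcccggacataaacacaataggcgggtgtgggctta
Sncg: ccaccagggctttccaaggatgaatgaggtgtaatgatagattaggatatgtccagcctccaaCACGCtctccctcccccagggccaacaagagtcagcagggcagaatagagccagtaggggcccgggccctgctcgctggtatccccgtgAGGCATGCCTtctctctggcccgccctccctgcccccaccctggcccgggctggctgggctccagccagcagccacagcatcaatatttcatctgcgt
GCGTG began 11 bases before the start of Emcn and 241 bases before that of Mmrn1, and its reverse complement 187 bases before the start of Sncg. The letters were absent from the Clec14a window, so that of the 2 genes that did not pass the test, 1 window held them. Of 32851 promoter windows of the same length, 28.2% held GCGTG on either strand. The p53 decamer in the Sncg window began 98 bases before the start and reads the same on both strands. It stood in 7.13% of all windows. These are matches of letters only, and binding was not measured.

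The log2 ratio of Mmrn2 was higher in every exposed mouse than in every vehicle mouse. Of all probes, 1.36%, 2.31% and 3.78% stood above the vehicle mice without overlap from low to high dose. The vehicle mice had log2 ratios of 5.20, 5.05, 4.91, 5.36 and 5.24, and the low-dose mice 6.02, 5.83, 6.12 and 6.17. At the medium dose the log2 ratios were 6.74, 6.95, 6.63, 7.06 and 6.22. At the high dose they were 7.60, 6.38, 6.96 and 7.49. The low-dose mice lay close together, whereas the high-dose mice were the most spread, with mouse 17 inside the range of the medium-dose mice and mice 16 and 20 above it. The group means were 5.15 ± 0.17 (SD, n = 5), 6.03 ± 0.15 (SD, n = 4), 6.72 ± 0.32 (SD, n = 5) and 7.11 ± 0.56 (SD, n = 4) from vehicle to high dose. The log2 change against vehicle was thus 0.88 (SE 0.19), 1.57 (SE 0.18) and 1.96 (SE 0.19), or 1.85-, 2.97- and 3.88-fold. At the high dose this was the fifth largest rise among the 20660 genes, which is the measure that chose Mmrn2.

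**Figure D1:**
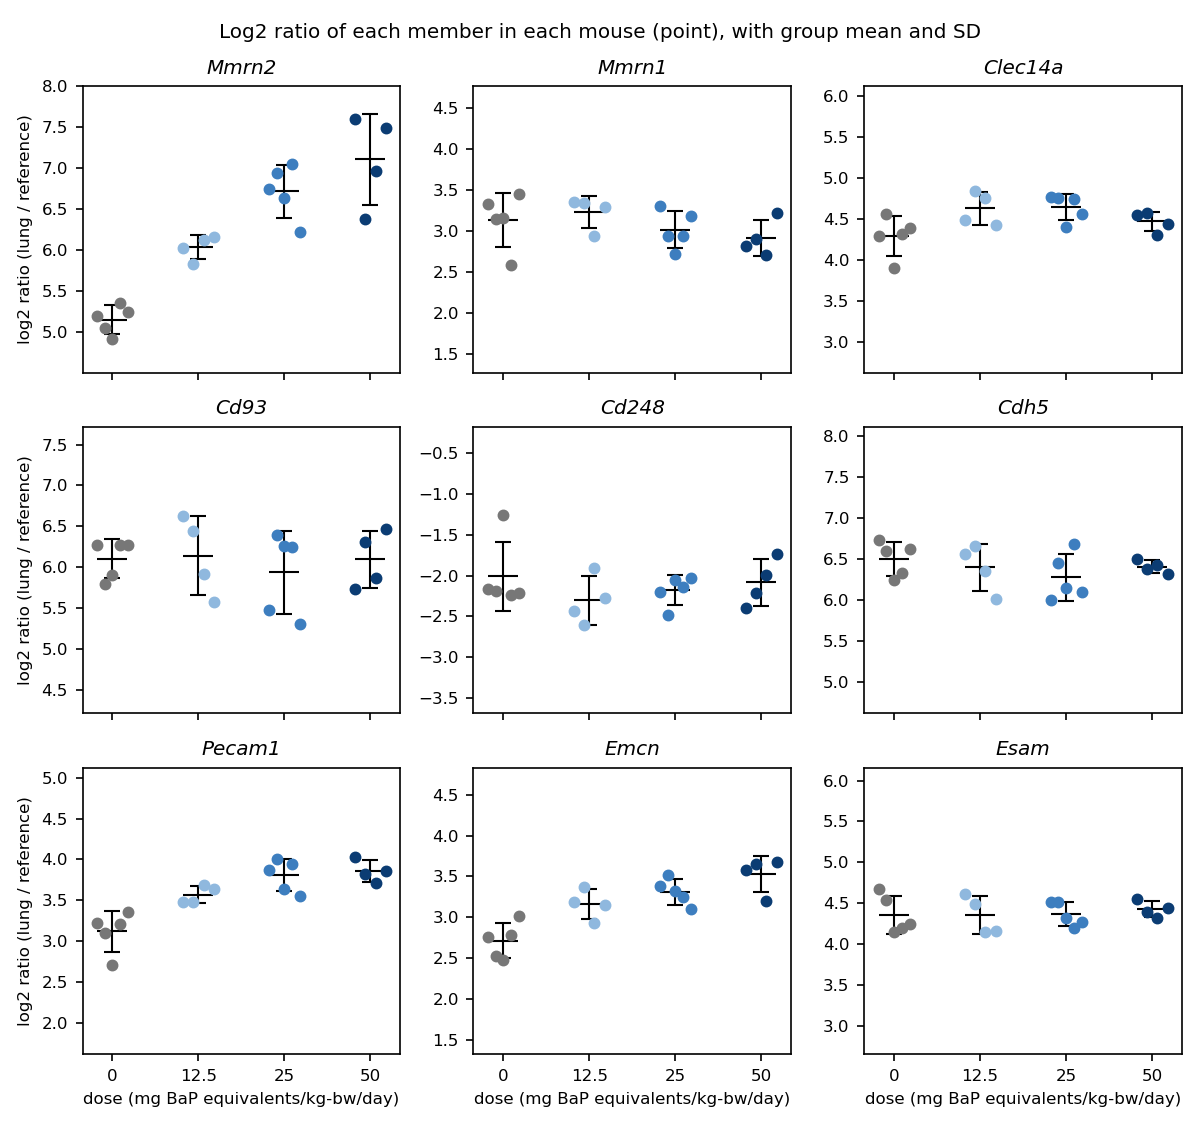
Log2 ratio of lung over reference RNA (y axis, 1 panel per gene, all spanning the same number of log2 units) for each mouse (point) by dose in mg BaP equivalents/kg-bw/day (x axis), with the group mean and SD as the bar. Mmrn2 climbed from a vehicle mean of 5.15 to 7.11 at the high dose, Pecam1 from 3.12 to 3.86 and Emcn from 2.71 to 3.53. The vehicle and exposed mice overlapped in the other 6 panels, and low-dose mouse 9 lay inside the vehicle range for Emcn.

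Both channels were read for the Mmrn2 probe, because a ratio can rise through either. The Cy5 intensity was 3031.5 to 6444.5 in vehicle mice, 6933 to 13525 at the low dose, 12917 to 17887 at the medium dose and 12868 to 37682 at the high dose. In the lung channel alone, before any normalization, each exposed mouse was therefore above each vehicle mouse. The Cy3 intensity of the reference lay between 102 and 155 on all 18 arrays. It was 102 to 128.5 in vehicle mice, and 119 to 137, 121 to 155 and 126 to 153 from low to high dose. On each slide it was higher in every exposed mouse than in every vehicle mouse, and the cause was not tested. The Mmrn2 probe was well above background in both channels on all 18 arrays and was never saturated.

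Between the exposed groups the values are likewise a description. Every medium-dose mouse had a higher Mmrn2 ratio than every low-dose mouse, with a difference of 0.69 (SE 0.19) on the log2 scale. Across the array, 0.821% of probes lay higher in all medium-dose mice than in all low-dose mice. In the limma fit over all 18 arrays no probe of 55681 was called between these doses (0% of probes), and 2764 probes had an unadjusted p under 0.05. Between high and medium dose the Mmrn2 ratios overlapped, with a difference of 0.39.

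No other gene of the EMILIN and multimerin family was called at any dose. Mmrn1 had log2 ratios of 3.33, 3.14, 3.16, 2.59 and 3.45 in vehicle mice and 2.82, 2.90, 2.70 and 3.22 at the high dose. The groups overlapped, and the log2 change was -0.23 (95% interval -0.54 to 0.09, adjusted p = 0.532). The low and medium doses gave 0.10 and -0.12. Of the 5 family members, which are Emilin1, Emilin2, Emilin3, Mmrn1 and Mmrn2, the 4 others ranged from -0.23 to 0.33 at the high dose, with Emilin3 well above background on none of the arrays. A gene was called at a Benjamini-Hochberg adjusted p of 0.05 or less over all probes and a fold change of at least 1.5, a rule that 1.2% of all probes met at the high dose, 0.726% at the medium dose and 0.0898% at the low dose.

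The 3 binding partners did not pass this rule at any dose. Clec14a, an endothelial C-type lectin, came nearest. Its brighter probe read 4.29, 4.56, 3.90, 4.31 and 4.39 in vehicle mice, 4.49, 4.85, 4.75 and 4.42 at the low dose, 4.77, 4.76, 4.40, 4.74 and 4.56 at the medium dose, and 4.55, 4.58, 4.31 and 4.44 at the high dose. Mouse 2 of the vehicle group overlapped with mice of each dose. The log2 changes were 0.34 (95% interval 0.09 to 0.58, adjusted p = 0.396), 0.36 (0.12 to 0.59, adjusted p = 0.0857) and 0.18 (-0.07 to 0.42, adjusted p = 0.528). The dimmer probe gave 0.12, -0.83 and 0.13, where the medium-dose value rested on mouse 13, which read -1.41 while the other medium-dose mice read between 2.48 and 2.86. On that array the reference channel of this spot read 757, against 58 to 74 on the 17 others, and the lung channel 314.5, against 358 to 860, so that the low ratio lay mainly in the reference channel. The brighter probe of mouse 13 read 4.40, inside the vehicle range.

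Cd93, the receptor of the same lectin group on endothelial and myeloid cells, varied within groups without following the dose, from 5.30 to 6.40 among medium-dose mice. Its vehicle mice had log2 ratios of 6.28, 5.80, 5.91, 6.27 and 6.28 and its high-dose mice 5.74, 6.31, 5.88 and 6.46. The changes were 0.04, -0.17 and -0.01, and the 95% interval at the high dose ran from -0.49 to 0.47. Cd248, the endosialin of pericytes and fibroblasts, was the only partner with less signal in lung than in the reference. It read -2.17, -2.19, -1.26, -2.24 and -2.21 in vehicle mice and -2.40, -2.22, -1.99 and -1.74 at the high dose. Its changes were -0.29, -0.17 and -0.07, with an interval of -0.45 to 0.30 at the high dose. Thbd, thrombomodulin, completes the group 14 C-type lectins, and its high-dose change was -0.13 (adjusted p = 0.907). None of the 4 lectin genes was called at any dose, beside 0.0898%, 0.726% and 1.2% of all probes from low to high dose.

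The endothelial markers divided. Pecam1, the junction protein CD31, had log2 ratios of 3.22, 3.10, 2.71, 3.21 and 3.35 in vehicle mice and 3.48, 3.48, 3.68 and 3.64 at the low dose. At the medium dose it read 3.88, 4.01, 3.64, 3.95 and 3.56, and at the high dose 4.03, 3.82, 3.71 and 3.86. Every exposed mouse lay above every vehicle mouse. Pecam1 did not pass the test at the low dose (log2 change 0.45, SE 0.12, adjusted p = 0.165), and rose by 0.69 (SE 0.11, adjusted p = 0.000968) at the medium and 0.74 (SE 0.12, adjusted p = 0.000597) at the high dose, or 1.61- and 1.66-fold.

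Emcn, endomucin, had log2 ratios of 2.76, 2.53, 2.48, 2.79 and 3.02 in vehicle mice and 3.19, 3.37, 2.93 and 3.15 at the low dose. At the medium dose it read 3.38, 3.52, 3.32, 3.24 and 3.10, and at the high dose 3.58, 3.65, 3.20 and 3.68. Mouse 9 of the low-dose group was the sole exposed mouse inside the vehicle range. Emcn gave 0.45 (SE 0.12, adjusted p = 0.189) at the low dose, and rose by 0.60 (SE 0.11, adjusted p = 0.00431) at the medium and 0.81 (SE 0.12, adjusted p = 0.000323) at the high dose, or 1.51- and 1.75-fold. The medium-dose value stood close to the 1.5-fold limit, and its call was lost without vehicle mouse 2 or 3 or without medium-dose mouse 11 or 12. Without vehicle mouse 3, which had the lowest ratios of both genes, Pecam1 also fell just under the limit at the medium dose, at 0.58, so that 0 of the 8 genes were then called there.

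Cdh5 and Esam, the other junction genes, gave no such rise. Cdh5, VE-cadherin, read 6.73, 6.59, 6.24, 6.33 and 6.62 in vehicle mice and 6.50, 6.37, 6.43 and 6.31 at the high dose, all inside the vehicle range. Its log2 changes were -0.11, -0.23 and -0.10, with a 95% interval of -0.39 to 0.19 at the high dose (adjusted p = 0.817). Esam read 4.67, 4.55, 4.15, 4.20 and 4.25 in vehicle mice and 4.55, 4.40, 4.32 and 4.44 at the high dose, again all inside the vehicle range. Its changes were -0.01, 0.00 and 0.07, with an interval of -0.18 to 0.31 at the high dose (adjusted p = 0.872). The upper ends of both intervals lay below the lower ends for Pecam1 (0.49) and Emcn (0.56), and a test of the difference between genes was not made.

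**Figure D2:**
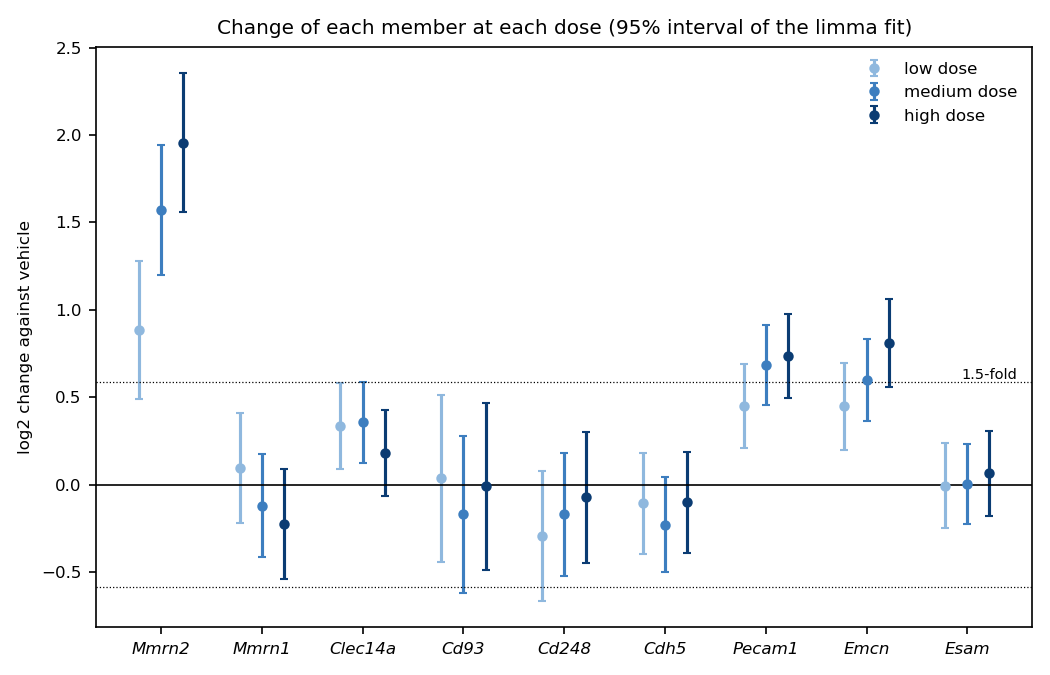
Log2 change against vehicle (y axis) of the 9 genes (x axis) at the low, medium and high dose, with the 95% interval of the limma fit as the bar; dotted lines mark a 1.5-fold change either way. Mmrn2 reached 0.88, 1.57 and 1.96, Pecam1 and Emcn passed the dotted line at the medium and high doses, and the intervals of Cd93, Cd248, Cdh5, Esam and Mmrn1 included 0 at each dose.

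Over the 8 genes other than Mmrn2, none was called at the low dose, where 0.0647% of all probes were called higher. At the medium dose 2 of 8 were called higher, beside 0.278% of all probes, and at the high dose 2 of 8, beside 0.399%. None was called lower, beside 0.0251%, 0.447% and 0.805% of all probes from low to high dose. In both cases the genes were Pecam1 and Emcn. With median centring of each array in place of loess, which called 69 probes higher and 11 lower at the high dose in place of 222 and 448, and 28 and 4 at the medium dose in place of 155 and 249, neither was called, with high-dose changes of 0.83 for Pecam1 (adjusted p = 0.254) and 0.81 for Emcn (adjusted p = 0.159). Without overlap, 1 of the 8 (Pecam1) lay above the vehicle mice at the low dose, and both genes did at the medium and high doses. Over the array, 1.36%, 2.31% and 3.78% of probes did so from low to high dose. The median log2 change of the 8 genes was 0.07, -0.06 and 0.03 from low to high dose, beside 0.00 over all probes at each dose. The 8 genes were chosen with earlier results of these data known, so these counts are a description.

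Larger lists of cell type genes were read the same way to see whether endothelial RNA as such moved. The 22 pan-endothelial genes, which include Tek, Tie1, Kdr, Flt1, Eng, Cldn5 and Erg, were well above background on all 18 arrays. Their median log2 change from low to high dose was 0.04, -0.12 and -0.02. None was called higher at any dose, beside 0.0647%, 0.278% and 0.399% of all probes. One, the sphingosine 1-phosphate receptor S1pr1, fell by 0.71 at the high dose (SE 0.10, adjusted p = 0.000126). The vascular endothelial growth factor receptor Kdr gave -0.38 (adjusted p = 0.0168), under the fold limit, and Cldn5 of the tight junctions -0.19 (adjusted p = 0.509). Ramp2 also passed the p threshold under the fold limit, with -0.34 at the medium (adjusted p = 0.0407) and -0.36 at the high dose (adjusted p = 0.0399). S1pr1 did so at the medium dose, with -0.47 (adjusted p = 0.00467). The direction of the list median depended on the scaling, and at the high dose it ran from -0.06 with ratios of the scanner software to 0.14 with median centring and 0.25 with scale normalization between arrays. Over the same settings Mmrn2 itself ran from 1.85 to 2.32. The 22 genes ranged from -0.71 to 0.31 at the high dose, so that the rises of Mmrn2, Pecam1 and Emcn were all above the highest of them.

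Set against this list mouse by mouse, the Mmrn2 change exceeded the list in each exposed mouse. Mmrn2 was chosen by its high-dose change in these mice, so its distance from the list is a description. The median change of the 22 genes from the vehicle mean ranged from -0.20 to 0.08 in vehicle mice, -0.05 to 0.20 at the low dose, -0.15 to 0.10 at the medium dose and -0.10 to 0.02 at the high dose. The Mmrn2 change minus this median averaged 0.83 (SD 0.23) at the low, 1.64 (SD 0.31) at the medium and 1.98 (SD 0.55) at the high dose, against 0.01 (SD 0.16) in vehicle mice. Against the median of Cdh5, Pecam1, Emcn and Esam it averaged 0.71 (SD 0.25), 1.24 (SD 0.23) and 1.57 (SD 0.50), a median that Pecam1 and Emcn raised to 0.38 at the high dose. The lowest difference from the list in an exposed mouse was 0.61, in the low-dose group, and the highest in a vehicle mouse 0.27.

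**Figure D3:**
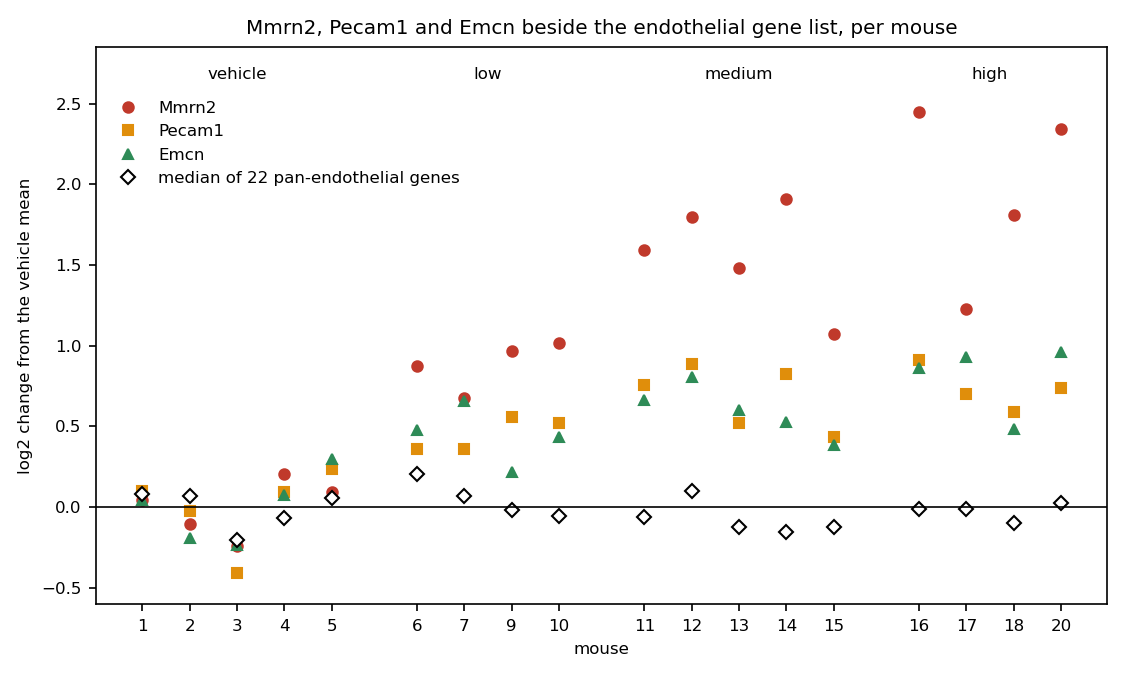
Log2 change from the vehicle mean (y axis) of Mmrn2, Pecam1 and Emcn and the median of the 22 pan-endothelial genes (open diamonds) in each of the 18 mice (x axis), ordered by dose group. The diamonds stay between -0.20 and 0.20 in all mice, while Mmrn2 reaches 0.68 to 1.02 at the low dose and 1.23 to 2.45 at the high dose.

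Among genes of particular vessel types, changes went both ways. Of 11 capillary genes, 1 rose and 2 fell at the high dose. Gpihbp1, which holds lipoprotein lipase on the capillary wall, fell by 1.16 (SE 0.16, adjusted p = 0.000132), and Ednrb, the endothelin receptor B, fell by 0.98 (SE 0.18, adjusted p = 0.00297) with -0.68 at the medium dose (adjusted p = 0.0311). The medium-dose call of Ednrb was lost under 4 of 12 alternative settings, and without medium-dose mouse 11, 14 or 15 or vehicle mouse 2, 4 or 5 (-0.79 to -0.58 over all mice left out). With ratios of the scanner software the high-dose value of Ednrb was -0.48 (adjusted p = 0.522). Sema3c, a secreted semaphorin, rose by 0.94 (SE 0.15, adjusted p = 0.000784). The capillary median was 0.02, -0.15 and -0.33 over the 3 doses. None of the 10 arterial and venous genes was called, beside 0.0898%, 0.726% and 1.2% of all probes from low to high dose. At the medium dose Hey1, with 0.49 (adjusted p = 0.0125), and Gja4, with -0.42 (adjusted p = 0.0267), passed the p threshold under the fold limit. Vwf, the von Willebrand factor, gave -0.11 (adjusted p = 0.688) at the high dose. Of 7 lymphatic genes with a probe, Lyve1, a hyaluronan receptor of lymphatic endothelium and of some macrophages, rose by 1.07 at the medium (adjusted p = 0.0151) and 1.28 at the high dose (adjusted p = 0.00515), while Prox1 and Flt4, the defining genes of that cell type, gave -0.09 (adjusted p = 0.765) and 0.01 (adjusted p = 0.989). Prox1 was well above background on 3 of 18 arrays. With ratios of the scanner software Lyve1 was not called, at 0.76 (adjusted p = 0.328) and 0.70 (adjusted p = 0.400), and with median centring its medium-dose call was also lost (1.08, adjusted p = 0.183).

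The list of 16 endothelial junction and glycocalyx genes held both Pecam1 and Emcn. It had 2 called higher at the medium dose, those same 2 genes, beside 0.278% of all probes. At the high dose it had 3, beside 0.399% of all probes, when the sialomucin Cd34 rose by 0.74 (SE 0.15, adjusted p = 0.00695). Its median was 0.08, 0.01 and 0.08, and its lowest member stood at -0.25 at the high dose. The other 13 genes were not called at any dose. Among them the junctional adhesion molecule genes Jam2, with 0.52 (adjusted p = 0.00137), and Jam3, with 0.34 (adjusted p = 0.0499), passed the p threshold at the high dose under the fold limit, as did Jam2 at the medium dose with 0.38 (adjusted p = 0.0134). In all, 12 of the 16 genes were higher at the high dose, beside 50.8% of all probes. Of the 16, 6 lay above the vehicle mice without overlap, beside 3.78% of all probes.

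Genes of the other cells that carry these proteins were read at the same doses. Of all probes, 0.0898%, 0.726% and 1.2% were called from low to high dose. At such shares an absence of calls in a short list is not a result about its cells. None of 10 platelet and megakaryocyte genes was called at any dose. All 10 were above the vehicle mean at the low dose (median 0.23), 9 at the medium (median 0.13) and 2 at the high dose (median -0.17). Over the whole array, 51.0%, 51.3% and 50.8% of probes were higher than in vehicle from low to high dose. None of 9 leukocyte genes was called, with medians of 0.11, 0.13 and 0.12 from low to high dose and, at the high dose, a range of -0.32 to 0.79, and Ptprc, the CD45 of all leukocytes, gave 0.12 (adjusted p = 0.669). None of 12 pericyte and smooth muscle genes was called, with medians of 0.11, -0.02 and -0.07. At the high dose they ranged from -0.51 to 0.37, and Pdgfrb gave 0.01. Postn, the highest, passed the p threshold under the fold limit (adjusted p = 0.0200). None of 10 lung epithelial genes was called, with medians of 0.03, -0.25 and -0.14. Abca3 passed the p threshold under the fold limit, with -0.35 at the medium (adjusted p = 0.0264) and -0.35 at the high dose (adjusted p = 0.0335). Of 10 fibroblast genes, the collagen genes Col1a1 and Col1a2 and the proteoglycan gene Dcn fell at the medium and the high dose, with -0.64, -0.65 and -0.90 at the high dose (adjusted p = 0.0192, 0.0152 and 0.0262). Without high-dose mouse 16 or 18 or vehicle mouse 3 none of these 3 was called at the high dose, and Dcn was also lost without high-dose mouse 17 or vehicle mouse 2 or 5. At the medium dose Col1a2 was lost without medium-dose mouse 12 or vehicle mouse 3, and Dcn without medium-dose mouse 12 or 14. Leaving out single mice moved the high-dose changes from -0.75 to -0.48 for Col1a1, -0.75 to -0.54 for Col1a2 and -1.08 to -0.78 for Dcn. The part of any cell type in the rise of Mmrn2, Pecam1 or Emcn was not tested.

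**Figure D4:**
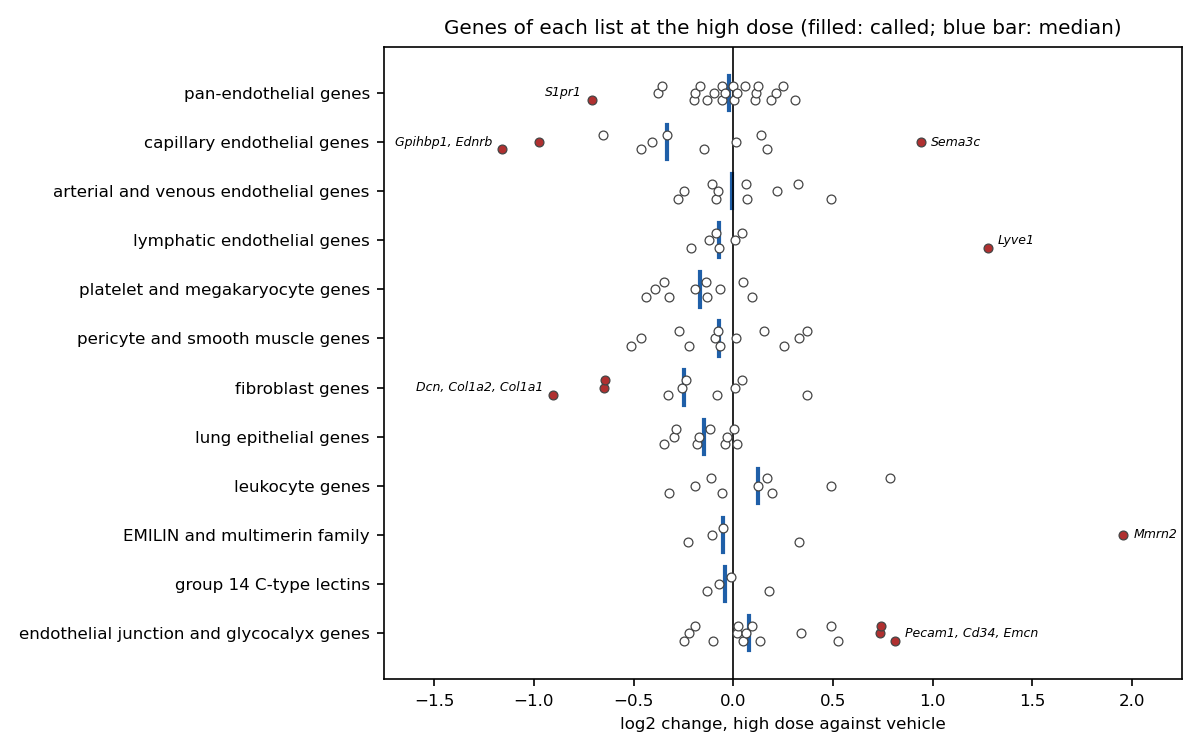
Log2 change at the high dose against vehicle (x axis) of each gene with a probe in the 12 lists (y axis); points filled red were called, the blue bar is the list's median, and the vertical offset within a list is for legibility. Mmrn2 stands farthest right at 1.96, the 22 pan-endothelial genes lie between -0.71 and 0.31, and Pecam1, Cd34 and Emcn are the 3 called junction and glycocalyx genes.

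Of the 6 named genes with a probe nearest to Mmrn2 on its chromosome, 3 on each side, none was called. From low to high dose 0.0898%, 0.726% and 1.2% of all probes were called. At such shares an absence of calls among 6 genes is not a result about this region. Gm3219, Fam25c, Bmpr1a, 9230112D13Rik and Ldb3 ranged from -0.36 to 0.20 over the 3 doses. Sncg, which encodes gamma-synuclein and stands directly beside Mmrn2, gave 0.26 (adjusted p = 0.665), 0.48 (adjusted p = 0.0356) and 0.47 (adjusted p = 0.0480), past the p threshold at the medium and high doses but under the 1.5-fold limit. Its reference channel rose more than that of Mmrn2, which read 102 to 128.5 in vehicle and 126 to 153 in high-dose mice. The Cy5 intensity of Sncg was 529.5 to 848 in vehicle and 1781 to 3295 in high-dose mice, and the Cy3 intensity, from an RNA that was the same on all arrays, was 149.5 to 194.5 and 372 to 646. With the Cy5 channel alone Sncg was called, with log2 changes of 1.21 at the medium dose (adjusted p = 0.00167) and 1.65 at the high dose (adjusted p = 0.000135). What raised the reference channel at this probe was not tested.

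**Figure D5:**
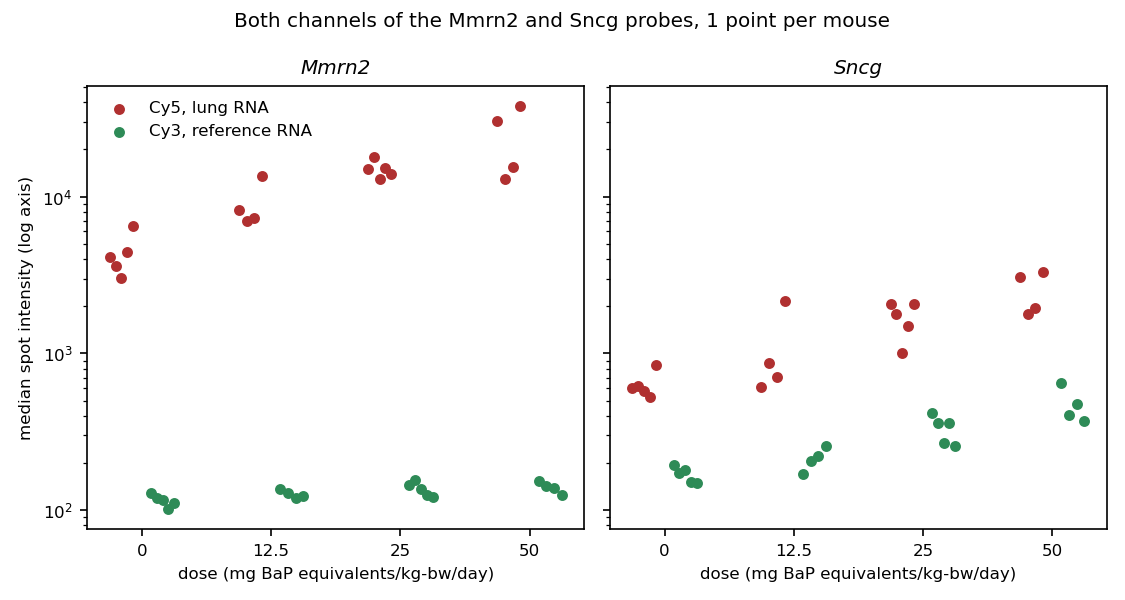
Median spot intensity (y axis, log scale) of the Mmrn2 and Sncg probes in the Cy5 channel (lung RNA, red) and the Cy3 channel (reference RNA, green), 1 point per mouse, by dose in mg BaP equivalents/kg-bw/day (x axis). For Mmrn2 the reference signal is 102 to 128.5 in vehicle mice and 126 to 153 at the high dose. For Sncg it climbs further, from 149.5 to 194.5 in vehicle mice to 372 to 646 at the high dose.

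The genes whose log2 ratios followed Mmrn2 most closely over the 18 mice were Celf5, an RNA-binding protein (Pearson r = 0.95), Zmat3, a zinc finger protein (0.94), Ces2c, a carboxylesterase (0.94), Phlda3 (0.94) and the cell cycle inhibitor Cdkn1a (0.93). They were ranked by the brightest probe of each gene, among 13442 genes with a probe well above background on all arrays. With all probes of Celf5 averaged, its medium-dose change was 0.52 in place of 1.23, under the fold limit. The mice share their dose groups, so that any gene that moved with dose scores high, and the values are a description. Pecam1 ranked 12 (r = 0.92) and Emcn 70 (r = 0.85). The other members came far lower, with Clec14a at rank 2742 (r = 0.43), Esam at 6080 (r = 0.13), Cd93 at 7901 (r = -0.03), Cd248 at 9197 (r = -0.16), Cdh5 at 9613 (r = -0.19) and Mmrn1 at 11009 (r = -0.35).

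Mice of all 4 groups lay together on each of the 3 slides, so the values were also read within slides. Mmrn2 at the high dose gave 1.87, 1.83 and 2.25 on slides 1, 2 and 3, and at the low dose 0.81, 0.99 and 0.92. At the medium dose it gave 1.72, 1.71 and, from 1 mouse of each group on slide 3, 0.98. Pecam1 at the high dose was 0.77, 0.74 and 0.51 and Emcn 0.97, 0.57 and 0.66. On slide 3 the medium-dose changes of both were small, at 0.20 for Pecam1 and 0.08 for Emcn, where vehicle mouse 5 had the highest vehicle ratio of both genes and mouse 15 the lowest medium-dose ratio. Within a slide, the dose groups were laid out by array column, and column and dose cannot be told apart.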

How the data were processed

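Lung RNA of 18 mice was measured on 2-colour Agilent arrays, 1 per mouse, without dye swap. The authors deposited scanner output (per the file headers, Agilent Feature Extraction 11.0.1.1) with median intensity of both channels and a log10 ratio per spot, and a table of log2 ratios, which across probes correlated with the values used here at r of 0.995 to 0.998. Median intensities without background subtraction, as the methods state, were normalized by loess within arrays in R 4.3.3 with limma 3.58.1. Outlier spots (215 to 307 per array) and control spots had no weight, and spots of 1 probe were averaged, so that 86 probes lacked a value on 1 or more arrays. All groups entered 1 linear model with empirical Bayes, in place of the MAANOVA test of the methods, with Benjamini-Hochberg adjustment over 55681 probes. The fit was tested on simulated data.

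Depth is signal over background: in Cy5, between 51.5% and 61.1% of probes per array stood well above it, and precision is limited by how many arrays there are. The Cy3 channel was well above background on no array for Mmrn1 and Emcn, and on 7 of 18 for Cdh5, so that their ratios rest on the lung channel against a reference near background.

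RefSeq accessions named 27235 probes through a table of GRCm38.p6, and the brightest probe stood for a gene. Of 128 list symbols, 126 had a probe. The genes named are the 9 members, called genes of the lists, 3 neighbours on each side of Mmrn2 and the 5 genes most alike. Tek, Tie1, Kdr, Ramp2, Cldn5, Jam2, Jam3, Thbd, Vwf, Hey1, Gja4, Prox1, Flt4, Ptprc, Pdgfrb, Postn and Abca3 were named after their values were seen. Members and lists were chosen with earlier results of these data known. No set test and no p over the members was used.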

Additional observations from a re-analysis of the deposited data

Results flagged for a closer look

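Of 40 groups of 4 or 5 mice over the 10 probes, 3 held a mouse far from the others, where chance gives about 1 in 20, or 2. Mmrn1 read 2.94 in low-dose mouse 9, and the next mouse 3.29. The dimmer Clec14a probe read -1.41 in medium-dose mouse 13, and the next mouse 2.48, with a reference intensity of 757 for that spot against 58 to 74 on the other arrays. Cd248 read -1.26 in vehicle mouse 3, and the next mouse -2.17. In each case the cause was not tested. Without vehicle mouse 3, the Cd248 change read 0.020 (medium dose) and 0.12 (high dose).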

How the results depend on the processing

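The Mmrn2 log2 change ran from 0.85 to 0.92, 1.46 to 1.79 and 1.85 to 2.32 at the low, medium and high dose over 12 alternatives, which were normexp with offset 50, ratios from the scanner software, the table the authors deposited, median centring, scale normalization, Aquantile, Cy5 alone, a slide block, bright probes only, fits of only the groups compared, averaging a gene's probes, and no fold limit. Aquantile, bright probes only, fits of only the groups compared, averaging a gene's probes and no fold limit leave the Mmrn2 group means as they are. Those settings could not move its change. Leaving out each mouse gave 0.82 to 0.95, 1.49 to 1.69 and 1.79 to 2.20, and slide 3 alone 0.98 at the medium dose. The count of the 8 other genes called at the medium dose was 1 with the authors' table, ratios from the scanner software or Cy5 alone, 0 with median centring, and 0 to 2 with each mouse left out; at the high dose it was 0 with median centring. Pan-endothelial genes called at the high dose numbered 0 with median centring or scale normalization and 3 with no fold limit, which gave 2 at the medium dose. All those called with no fold limit fell. Median centring, which at the high dose left 69 rises and 11 falls called in place of 222 and 448, moved the median of bright probes by 0.13. Emcn at the medium dose was 0.21 (adjusted p = 0.828) with the scanner software's ratios. These ratios ended the calls of Lyve1 and Ednrb at both doses (Ednrb -0.95 at the medium, adjusted p = 0.118), and of Col1a2 (-0.62 and -0.60) and Dcn (-0.92 and -0.95) at adjusted p of 0.0508 to 0.0681. The authors' table put Col1a2 under the fold limit at both doses (-0.57 and -0.53), and Emcn at the medium dose (0.57). Cy5 alone put Col1a1 at the high dose (-0.48), Col1a2 at both (-0.48 and -0.46) and Emcn at the medium dose (0.53) under it. Scale normalization ended the high-dose calls of S1pr1 (-0.49) and Gpihbp1 (-0.83) and the medium-dose call of Ednrb (-0.57), which averaging its probes also ended (-0.52). Fitting only the groups compared ended that of Col1a1 at the high dose (-0.64, adjusted p = 0.0525). Median centring ended every call at the medium and high doses of Pecam1, Emcn, Cd34, Sema3c, S1pr1, Gpihbp1, Ednrb, Col1a1, Col1a2 and Dcn, at adjusted p of 0.159 or more, and that of Lyve1 at the medium dose.

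Genes near 0 changed sign. With the scanner software's ratios Cd93 at the low dose was -0.032, Cdh5 at the low dose 0.18 and Esam at the medium dose -0.046. In the authors' table Esam at the medium dose was -0.014 and Cd93 at the high dose 0.0033. With median centring Esam was 0.079 at the low dose, and Cd93, Cd248 and Cdh5 0.22, 0.15 and 0.056 at the high dose. With scale normalization Esam was 0.0022 at the low dose, Mmrn1, Cd93 and Cdh5 0.0031, 0.056 and 0.010 at the medium dose, and Cd93 and Cdh5 0.33 and 0.28 at the high dose. With Cy5 alone Cd93 at the low dose was -0.016, Esam at the medium dose -0.050, and Cd93, Cdh5 and Esam 0.11, 0.056 and -0.0037 at the high dose. Clec14a at the medium dose was farther from 0, at 0.36 on its brighter probe, and -0.24 with both probes averaged. The dimmer probe gave -0.83 there, a value that rested on mouse 13. With each mouse left out, the low-dose change ran from -0.042 to 0.19 for Mmrn1, -0.13 to 0.22 for Cd93, -0.20 to 0.020 for Cdh5 and -0.092 to 0.071 for Esam. It ran from -0.22 to 0.020 for Cd248 and -0.051 to 0.080 for Esam at the medium dose, and from -0.13 to 0.11 for Cd93 and -0.19 to 0.12 for Cd248 at the high dose. Where no construction of the setting shows it, the cause was not tested. No paired analysis was possible because each mouse number belongs to 1 group. Aquantile normalization leaves ratios as they are and could change no value.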
